A study of Mus musculus with 9 samples.

Results

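The effect of lowering Sin3a on gene expression was examined in mouse embryos by comparing the 3 libraries labelled Sin3a KD with the 3 control libraries labelled NC, which are 6 of the 9 libraries of the study. Genes were taken where 3 or more of the 9 libraries had a normalised count of 10 or above, which left 13343 of the 20087 named genes. The embryos were wild type on the B6D2F1 hybrid background. Every embryo had been injected at the zygote stage, with siRNA against Sin3a in the Sin3a KD group and with a nonspecific siRNA in NC (siRNA is short double-stranded RNA that lowers the messenger RNA it matches). A further group, Hdac1/2 cKD, received siRNA against Hdac1 and Hdac2 and served here for a direct comparison. All were collected at E2.75, when the mouse embryo is a morula, and each library was made from the polyadenylated RNA of 60 pooled embryos. Injected siRNA lowers a transcript without removing the gene and is not confined to a cell type.

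SIN3A is a large scaffold protein with no enzyme activity of its own. It holds the histone deacetylases HDAC1 and HDAC2 together with smaller subunits, and is brought to genes by DNA-binding proteins such as the MXD and MNT partners of MAX, which act at E-box sequences. Removal of acetyl groups from histones by the complex is best known for lowering transcription, although the complex also sits at many active genes. In the mouse, embryos that lack Sin3a die around implantation.

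Whether the 3 libraries of a group were collected separately is not stated in the labels. The p-values therefore measure only the spread between these samples, which may be technical. The sum of normalised counts was 11.9 M in the lowest and 13.5 M in the highest library. NC replicate 3 stood apart from the other libraries, with 28.4% of the named genes at 0 against 13.2% to 23.4% elsewhere. The 10 morula markers (among them Pou5f1, Cdx2 and Krt8) were all present, summing to 48127 to 53108 in NC and 45712 to 49949 in Sin3a KD. Of the markers of cells that could have been carried along, the defining ones of sperm summed to at most 4.50 in any of the 6 libraries, those of fibroblasts to at most 25.8 and those of blood to at most 27.9. The defining cumulus and granulosa cell markers summed to 22.2 to 40.4 in NC and 65.2 to 70.0 in Sin3a KD. The fuller lists counted below summed to more. They reached 1205 to 1378 in NC and 1180.0 to 1469 in Sin3a KD for sperm and spermatids, 751 to 894 and 855 to 1060.0 for cumulus and granulosa cells, and 837 to 937 and 913 to 1039 for oviduct, fibroblasts and blood. The part of these markers in the results was not tested. The sequencing lanes were 5, 2 and 3 for NC replicates 1 to 3 and 4, 3 and 3 for Sin3a KD, so NC replicate 1 and Sin3a KD replicate 1 were each alone on a lane.

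Log2 fold changes are Sin3a KD minus NC on log2(normalised count + 1), fitted in limma. A gene was taken to have risen or fallen where its Benjamini-Hochberg adjusted p over all 13343 genes was below 0.05. By that rule 480 genes (3.60%) rose and 582 (4.36%) fell, and the median change of all tested genes was 0.03. Together these were 1062 genes (7.96%). A log2 change of 1 or more was found in 178 raised genes (1.33% of all tested), and one of -1 or less in 153 lowered genes (1.15%). The shares that passed differed with count level, as given below. The lists of genes below do not hold every gene of their kind, and were not matched to genes of like counts. They are described by how many members passed, to be read against the shares of all tested genes above. In brackets stand their median log2 change and, after the word unadjusted, how many members had an unadjusted limma p below 0.05 in either direction, which 3193 of all tested genes (23.9%) had. The 150 genes named by rule that passed did not overlap between the 3 libraries of each group, which was also true of 27.1% of all tested genes. A further 24 list members that passed are named without counts and were chosen after their values were seen. Of these 1 overlapped (Gpx1), and each of the 24 did not pass in at least 1 of the 9 fits that left out 1 library. In pooled embryos, fewer cells of a type and less RNA per cell cannot be told apart.

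These counts depended on single libraries and on the model. They were 289 and 300 without NC replicate 1, 742 and 796 without NC replicate 2, and 309 and 370 without NC replicate 3. They were 129 and 211 without Sin3a KD replicate 1 and 121 and 216 without Sin3a KD replicate 3. With the libraries scaled to equal totals 741 rose and 425 fell, so that 63.6% of the genes that passed had risen instead of 45.2%. With lane as a factor 61 genes rose and 33 fell (64.9% risen), and without the 2 libraries that were alone on their lanes 26 and 25. With variances moderated toward a single value instead of a robust trend the counts were 17 and 19. Of the 150 named calls, 33, 22 and 14 were kept in these last 3 fits, 78 were kept when any 1 library was left out, and 0 changed sign under any setting. Of the genes named here, Sin3a, Hdac5, Alpl, Slc35f2, Ppp1r14a, Plxna1, Zcchc14 and Ly6e passed in every setting, and the gene model Gm14698 in all but the one that required a mean of at least 50, where it was not tested. Within lane 3, which held NC replicate 3 and Sin3a KD replicates 2 and 3, the median log2 difference was 0.93 for the raised genes, -0.73 for the lowered genes and 0.02 for all tested genes. These libraries took part in the calls, so the direction there follows from the choice of genes. The list paragraphs below give only the fits that left out 1 library, and some counts fell further in the lane fits. With lane as a factor 2 Sin3 complex members, 0 p53 targets and 2 glycolysis genes rose. Without the 2 libraries alone on their lanes these numbers were 0, 1 and 0. Lowered oxidative stress and lysosome genes numbered 0 in both fits, and lowered Sin3 complex members stayed at 2.

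**Figure D1:**
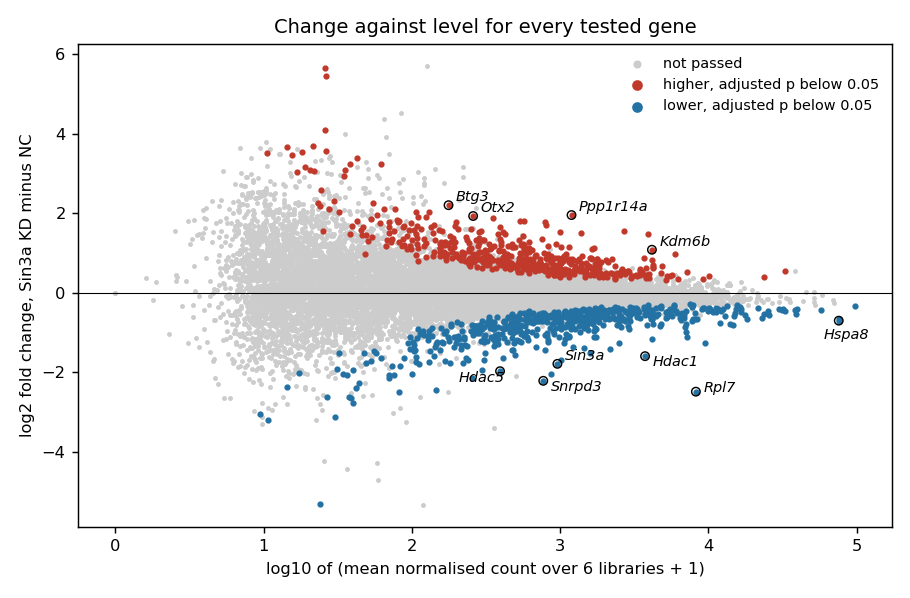
Each point is 1 of the 13343 tested genes. The horizontal axis is log10 of the mean normalised count over the 6 libraries plus 1, and the vertical axis is the log2 fold change of Sin3a KD minus NC. Red and blue points are the 480 genes that rose and the 582 that fell at an adjusted p below 0.05, and grey points did not pass. The lowered genes lie more to the right, at higher counts, than the raised ones.

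The lowered genes had higher counts than the raised ones, on a scale that also grows with transcript length. All tested genes were split into 3 equal classes by their mean normalised count. In the top class 9.15% fell and 5.28% rose, in the middle class 3.31% fell and 4.45% rose, and in the lowest class 0.629% fell and 1.06% rose. The median normalised count was 1059 for the lowered genes, 521 for the raised genes and 228 for all tested genes.

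The targeted transcript was lower in each library labelled for it. Sin3a (chromosome 9, 57072040 to 57128366, forward strand; coordinates here and below are GRCm38) had normalised counts of 1779, 1215 and 1459 in NC and 354, 520.1 and 418 in Sin3a KD. The groups did not overlap, and Sin3a KD replicate 2 kept the most of the transcript. The mean was 29.0% of that of NC (log2 -1.78, SE 0.17, adjusted p = 0.000652). It stood at 1990.2, 2239.7 and 1903 in Hdac1/2 cKD, above the NC mean of the same gene in each library.

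Among the partners that SIN3A holds, the transcript of 1 deacetylase was also lower. Hdac1 (chromosome 4, 129516104 to 129542713, reverse strand), which encodes a catalytic subunit, had counts of 6245, 4925 and 5536 in NC and 1333, 2597 and 1802 in Sin3a KD. All 3 Sin3a KD libraries lay below all 3 NC libraries (34.3% of the NC mean, log2 -1.59, SE 0.21, adjusted p = 0.00297), and replicate 2 was again the highest of the 3. A gene model that matches Hdac1 at 99.4% of the aligned bases, Gm10093, was lower as well. It had 844, 438 and 794 in the NC libraries and 162, 350.2 and 259 in the Sin3a KD libraries, so reads of these 2 could have been divided between them. Hdac2, which encodes the alternative catalytic subunit, had counts of 2347, 2020.3 and 2492 in NC and 2136, 2036 and 2008 in Sin3a KD and missed the threshold (log2 -0.15, SE 0.20, adjusted p = 0.711). Its groups overlapped, and it stood at 193, 350.3 and 371 in Hdac1/2 cKD, where it was a target.

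Several other subunits moved in the opposite direction to Sin3a. Of the 23 tested members of the complex 5 rose and 2 fell (median 0.05, unadjusted 9). Sap30, which encodes a subunit that bridges SIN3A and the deacetylases, rose, with counts of 497, 718 and 470.4 in NC and 1527, 1004 and 1393 in Sin3a KD (log2 1.22, SE 0.19, adjusted p = 0.0035). Ing1, a subunit that binds methylated lysine 4 of histone H3, stood at 732, 794 and 659 in NC and 1664, 1222 and 1457 in Sin3a KD (log2 0.98, SE 0.15, adjusted p = 0.0035). Both were raised in all 3 libraries, with Sin3a KD replicate 2 the lowest of the 3. Its paralogue Ing2 rose by 1.11 and Arid4b, a DNA-binding subunit, by 0.70 on the log2 scale. Sin3b, the paralogue that can take the scaffold's place in a related complex, had counts of 730.4, 745 and 819 in NC and 1089.6, 1084 and 956 in Sin3a KD (log2 0.45, SE 0.12, adjusted p = 0.0382). The other 16 members ranged from -0.31 for Morf4l1, a subunit of the SIN3B form, to 0.40 for Ogt, the enzyme that adds N-acetylglucosamine to proteins. Of the raised members, Sap30 and Ing1 also differed from Hdac1/2 cKD in the direct comparison (log2 0.92 and 0.73, adjusted p = 0.00435 and 0.00498), whereas Sin3b had a value of -0.07 there (adjusted p = 0.754). The 5 members that rose became 3 without NC replicate 1 and 2 without Sin3a KD replicate 1 or 3. Ing2 did not pass without Sin3a KD replicate 1 or 3 (adjusted p = 0.0554 to 0.0675). Arid4b did not pass without NC replicate 1 or 3 or Sin3a KD replicate 1 or 3 (adjusted p = 0.064 to 0.105). Sin3b did not pass without NC replicate 1 or 2, Hdac1/2 cKD replicate 1, 2 or 3, or Sin3a KD replicate 1, 2 or 3 (adjusted p = 0.0539 to 0.141). Lowered Sin3 complex members numbered 4 without NC replicate 2.

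**Figure D2:**
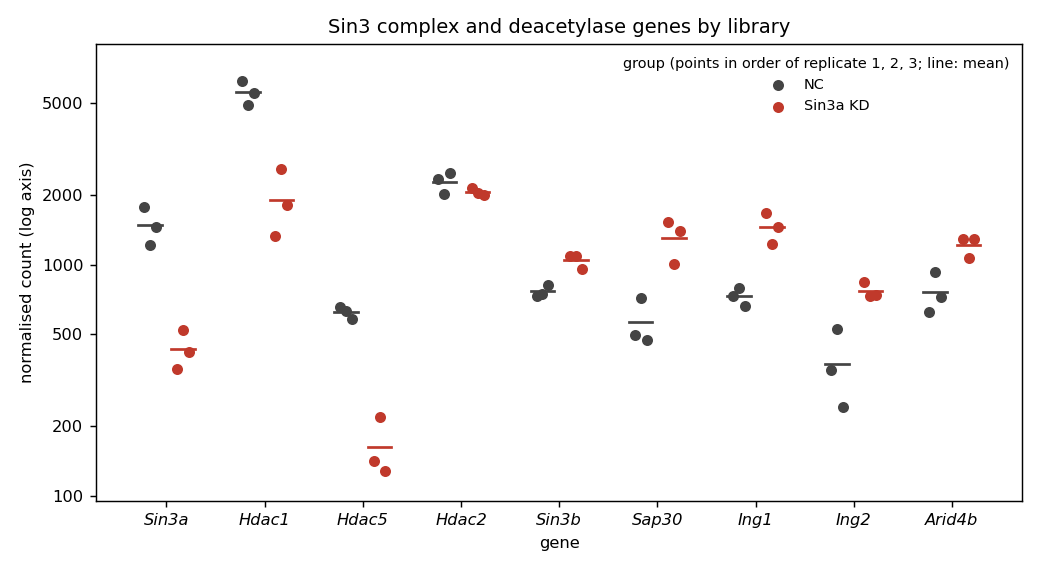
Normalised counts (log axis) of 9 genes, those of the Sin3 complex named above and the deacetylase gene Hdac5, with 3 NC libraries in grey and 3 Sin3a KD libraries in red in the order of replicates 1 to 3, and lines at the group means. Sin3a, Hdac1 and Hdac5 are lower in all 3 Sin3a KD libraries, Hdac2 overlaps between the groups, and Sin3b, Sap30, Ing1, Ing2 and Arid4b are higher.

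Outside the complex, 1 further deacetylase fell, and it was among the 10 lowest fold changes of lowered genes that averaged 50 or more. Hdac5 (chromosome 11, 102194432 to 102230166, reverse strand), a class IIa deacetylase that shuttles between nucleus and cytoplasm, had counts of 658, 628 and 580.0 in NC and 141, 219 and 127 in Sin3a KD (log2 -1.97, SE 0.21, adjusted p = 0.000865). In Hdac1/2 cKD against NC it missed the threshold (1187, 834 and 874 in Hdac1/2 cKD, log2 0.62, adjusted p = 0.0628), and the direct comparison of Sin3a KD minus Hdac1/2 cKD gave log2 -2.58, SE 0.21, adjusted p = 6.5e-06. Of 9 tested deacetylases outside the complex it was the only one to pass (median 0.07, unadjusted 1). In the NuRD and CoREST complexes, which also use HDAC1 and HDAC2, 3 of 19 listed members rose and 0 fell (median 0.04, unadjusted 7): Hmg20b (log2 0.71, adjusted p = 0.0295), Zmym2 (log2 0.45, adjusted p = 0.0302) and Gse1 (log2 0.72, adjusted p = 0.0326). These 3 were not raised in every reduced fit, and the count was 0 without NC replicate 3, without Sin3a KD replicate 1 and without Sin3a KD replicate 3. Hdac1, which fell (above), was counted with the Sin3 complex and was not among the 19. Of 14 histone acetyltransferases, the enzymes with the opposite activity, 2 fell and 0 rose (median -0.06, unadjusted 5). These were Kat5 (log2 -0.70, adjusted p = 0.0131), the catalytic subunit of the TIP60 complex, and Kat7 (log2 -0.56, adjusted p = 0.0205), which acetylates histones at replication origins. Kat5 did not pass without Sin3a KD replicate 3 (adjusted p = 0.0545). Kat7 did not pass without NC replicate 1 or Sin3a KD replicate 1 or 3 (adjusted p = 0.0679 to 0.101). Hmg20b did not pass without NC replicate 2 or 3 or Sin3a KD replicate 1 or 3 (adjusted p = 0.0595 to 0.133). Zmym2 did not pass without NC replicate 1 or 3 or Sin3a KD replicate 1, 2 or 3 (adjusted p = 0.0548 to 0.121). Gse1 did not pass without NC replicate 3 or Sin3a KD replicate 1 or 3 (adjusted p = 0.0812 to 0.14). Lowered NuRD and CoREST members numbered 1 without NC replicate 2 or Sin3a KD replicate 2.

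Of the 22 tested factors that bring SIN3A to genes, 1 rose and 2 fell (median -0.06, unadjusted 10). Mxd4, a MAX partner, had counts of 69.9, 132 and 52.7 in NC and 243, 237 and 221 in Sin3a KD (log2 1.56, SE 0.31, adjusted p = 0.0105). Mnt, another MAX partner, had counts of 951, 992 and 1009 in NC and 653, 597 and 697 in Sin3a KD (log2 -0.60, SE 0.12, adjusted p = 0.0111). The other gene that fell was the pluripotency factor Nanog, described with its list below. Thus both MAX partners that passed did so in opposite directions, and each had 3 Sin3a KD libraries on 1 side of NC. MAX dimers bind the E-box CACGTG, which reads alike on both strands. The windows below, from RefSeq on GRCm38.p6, run from 250 bases before to 50 bases after the annotated start and are shown because each holds that E-box, given in capitals. They belong to Mxd4 (chr5:34187661-34187960, reverse strand), Mnt (chr11:74830674-74830973, forward strand) and Hdac5 (chr11:102230123-102230422, reverse strand), and each is written 5′ to 3′ in the direction of its gene. Raised recruiting factors numbered 3 without NC replicate 2. Lowered recruiting factors numbered 1 without NC replicate 3 or Sin3a KD replicate 1 or 3.
Mxd4: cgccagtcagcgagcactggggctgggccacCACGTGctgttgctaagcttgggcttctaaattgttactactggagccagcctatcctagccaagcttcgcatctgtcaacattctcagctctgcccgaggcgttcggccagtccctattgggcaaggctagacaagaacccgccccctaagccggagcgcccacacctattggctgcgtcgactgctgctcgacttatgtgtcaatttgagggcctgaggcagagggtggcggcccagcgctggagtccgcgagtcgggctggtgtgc
Mnt: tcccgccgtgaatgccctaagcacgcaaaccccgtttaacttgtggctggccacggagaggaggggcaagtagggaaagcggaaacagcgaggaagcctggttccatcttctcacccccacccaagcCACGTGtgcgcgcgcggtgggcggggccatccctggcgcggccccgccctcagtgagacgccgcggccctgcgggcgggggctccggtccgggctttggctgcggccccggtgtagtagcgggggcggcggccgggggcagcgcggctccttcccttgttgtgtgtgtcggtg
Hdac5: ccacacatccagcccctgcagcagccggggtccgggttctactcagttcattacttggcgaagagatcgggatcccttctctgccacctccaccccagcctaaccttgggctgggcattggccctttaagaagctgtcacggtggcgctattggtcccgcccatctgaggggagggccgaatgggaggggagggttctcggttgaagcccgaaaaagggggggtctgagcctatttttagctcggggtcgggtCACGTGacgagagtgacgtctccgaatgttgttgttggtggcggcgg
Counted from the annotated start, the E-box begins at -219 in Mxd4, at -123 in Mnt and at +3 in Hdac5. Such a match is not by itself a binding site.

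Across all genes with exactly 1 such window, the E-box was in 10.2% of 7790 tested genes, in 32 of the 290 raised and 43 of the 365 lowered genes that could be matched. The GC box GGGCGG, known as a site of SP and KLF factors, was in 79.3% of the raised, 70.7% of the lowered and 65.6% of all windows. The median GC content was 65.3% for the raised, 61.7% for the lowered and 61.0% for all windows. The NF-Y sequence CCAAT was in 41.4%, 39.2% and 39.7%, and the CREB sequence TGACGTCA in 2.41%, 2.74% and 3.41%, in the same order. The p53 element was found in 3 windows of all tested genes and in 0 of the raised or lowered ones. Each motif was searched on both strands, and these shares are a description without a test.

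Among lowered genes that averaged 50 or more over the 6 libraries, with no overlap between groups, the 10 lowest fold changes included 5 genes in which Sin3a KD replicate 2 was the highest of the 3. Rpl7, which encodes a protein of the large ribosomal subunit, had counts of 14084, 9819 and 17468 in NC and 1591, 4545 and 1911 in Sin3a KD (log2 -2.48, SE 0.40, adjusted p = 0.0155). Snrpd3, a core protein of the splicing snRNPs, had counts of 1214, 890.1 and 1675 in NC and 189, 412 and 233 in Sin3a KD (log2 -2.21, SE 0.28, adjusted p = 0.00261). Ints7, a subunit of the Integrator complex that processes small nuclear RNAs, had counts of 1680.3, 1151 and 1259.7 in NC and 208, 596 and 276 in Sin3a KD (log2 -2.05, SE 0.33, adjusted p = 0.0078). In each of the 3 the value of replicate 2 was more than that of either other Sin3a KD library. It was below every NC library, which the choice of genes required. The same genes stood at 13385, 13526 and 13506 in Hdac1/2 cKD for Rpl7, 1006, 1159 and 957 in Hdac1/2 cKD for Snrpd3 and 1435, 1749 and 1388 in Hdac1/2 cKD for Ints7, within or near the NC range. Fgf3, a fibroblast growth factor ligand, fell, with counts of 173, 149.9 and 153 in NC and 21.1, 49.4 and 50.6 in Sin3a KD (log2 -2.05, adjusted p = 0.00542). Galc, a lysosomal galactosylceramidase, had counts of 94.4, 88.8 and 157 in NC and 27.4, 26.5 and 18.8 in Sin3a KD (log2 -2.15, adjusted p = 0.00495), and Pklr, a pyruvate kinase, 116, 74.1 and 175 in NC and 35.3, 17.5 and 29.7 in Sin3a KD (log2 -2.07, adjusted p = 0.0077). In these 3 genes replicate 2 was not the highest of the 3. Map4k1 and Pstpip1, best known from blood cells, and Syp, a synaptic vesicle protein, completed the 10 lowest with Hdac5, at log2 -2.44, -2.07 and -2.14. Rpl7 did not pass without NC replicate 1 or 3 or Sin3a KD replicate 3 (adjusted p = 0.0547 to 0.0658). Map4k1 and Pstpip1 did not pass without NC replicate 3 or Sin3a KD replicate 1 or 2 (adjusted p = 0.0534 to 0.0973). Syp did not pass without NC replicate 1 or 3 or Sin3a KD replicate 1 (adjusted p = 0.0503 to 0.0638).

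**Figure D3:**
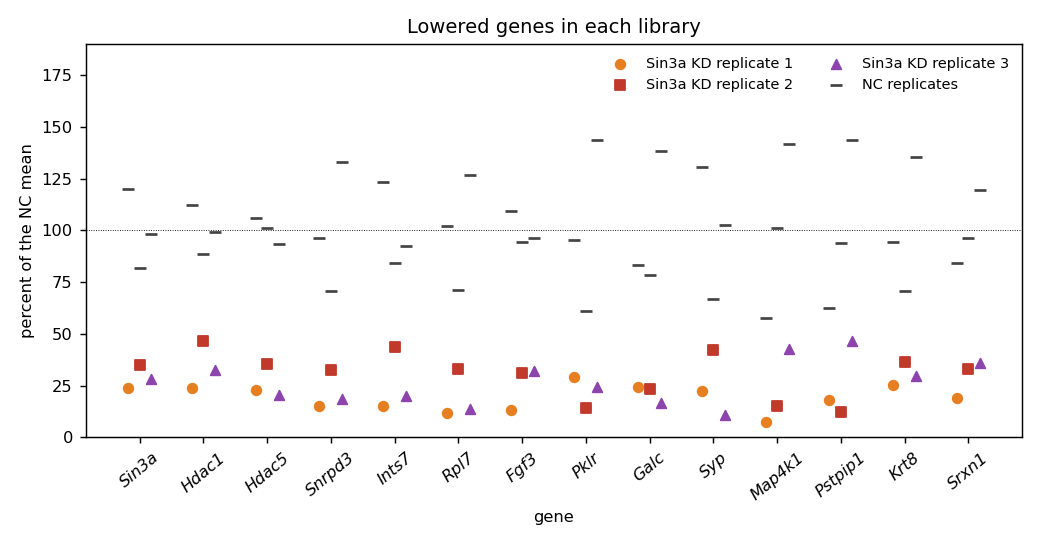
Level of 14 lowered genes in each of the 6 libraries as a percent of the NC mean of the gene, with Sin3a KD replicates 1, 2 and 3 as circles, squares and triangles and NC replicates as dashes. In Sin3a, Hdac1, Hdac5, Snrpd3, Ints7, Rpl7, Syp and Krt8 the square of replicate 2 is the highest of the 3 Sin3a KD points.

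That order of the libraries was common among the genes that passed. Sin3a KD replicate 2 was the highest of the 3 in 405 of the 582 lowered genes (69.6%), against 34.5% of all tested genes. It was the lowest of the 3 in 278 of the 480 raised genes (57.9%), against 33.1% of all tested genes. Replicate 2 was also the Sin3a KD library with the most Sin3a transcript, as given above. The part of the remaining transcript in this order was not tested. Replicates 2 and 3 shared lane 3, whereas replicate 1 was on lane 4.

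The 10 highest fold changes among raised genes that averaged 50 or more over the 6 libraries, with no overlap between groups, were in genes of varied function, some of them low in NC. Acot1, an acyl-CoA thioesterase, rose, with counts of 7.15, 28.6 and 4.66 in NC and 125, 68.9 and 129.6 in Sin3a KD (log2 3.24, SE 0.56, adjusted p = 0.00553). Btg3, an antiproliferative gene, had counts of 98.7, 72.4 and 30.0 in NC and 239, 350.4 and 264 in Sin3a KD (log2 2.21, SE 0.38, adjusted p = 0.00586). Kif26a, an atypical kinesin, had counts of 49.6, 51.6 and 25.8 in NC and 179, 141 and 189 in Sin3a KD (log2 2.03, adjusted p = 0.00563). A raised level in all 3 Sin3a KD libraries was a condition for the choice of these genes. Acot1 and Btg3 were also raised in Hdac1/2 cKD (70.3, 70.5 and 125 in Hdac1/2 cKD and 380.4, 279 and 527 in Hdac1/2 cKD). Ppp1r14a, an inhibitor of myosin phosphatase, had counts of 336, 659.9 and 503 in NC and 1907, 1619 and 2132 in Sin3a KD (log2 1.96, SE 0.22, adjusted p = 0.000879) against 519, 681 and 725 in Hdac1/2 cKD (log2 1.56, adjusted p = 0.000433 for the direct comparison). Zfp280c, Sncb, Txnrd3, Cdk5r2 and Evpl were raised by 2.27, 2.11, 2.11, 2.04 and 1.95, from NC means of 15.0, 27.5, 31.2, 58.1 and 22.8. Otx2, the other member, is described with the pluripotency genes. Zfp280c did not pass without NC replicate 1 or 3 or Sin3a KD replicate 1 or 3 (adjusted p = 0.0596 to 0.137). Sncb and Cdk5r2 did not pass without NC replicate 1 or Sin3a KD replicate 1 or 3 (adjusted p = 0.0518 to 0.076). Txnrd3 and Evpl did not pass without Sin3a KD replicate 1 or 3 (adjusted p = 0.058 to 0.0871). Otx2 did not pass without Sin3a KD replicate 3 (adjusted p = 0.0544).

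The p53 targets that passed had all risen. Of 27 tested p53 targets 8 rose and 0 fell (median 0.35, unadjusted 12): Bbc3, Dcxr, Plk2, Aen, Cdkn1a, Phlda3, Zmat3 and Polk. Bbc3 (PUMA), which binds and blocks the survival proteins of the BCL2 family, had counts of 237, 394 and 448 in NC and 1190.2, 969.6 and 1469 in Sin3a KD (log2 1.78, SE 0.25, adjusted p = 0.00297), and in the direct comparison it was higher than in Hdac1/2 cKD (log2 1.18, adjusted p = 0.00671). Plk2, a kinase of the polo family, had counts of 346, 443 and 447 in NC and 921, 717 and 983 in Sin3a KD (log2 1.08, adjusted p = 0.0132). Aen, an apoptosis-associated nuclease, had counts of 1368, 1527 and 1125 in NC and 2093, 1817 and 2197 in Sin3a KD (log2 0.61, adjusted p = 0.0131). Cdkn1a, the p21 inhibitor of cyclin-dependent kinases, stood at 3088, 2991 and 3923 in NC and 4582, 3934 and 5410.4 in Sin3a KD (log2 0.48, adjusted p = 0.0403), with the lowest Sin3a KD library (replicate 2) just above the highest NC library. It was the only one of 8 tested inhibitors of this kind to pass, and 0 of them fell (median 0.68, unadjusted 3). Of 24 BCL2 family members and caspases 3 rose and 0 fell (median 0.17, unadjusted 8), with Bcl2l11 (BIM), another trigger of mitochondrial cell death, at 225, 342 and 331 in NC and 701, 557 and 732 in Sin3a KD (log2 1.16, SE 0.19, adjusted p = 0.00502) and Apaf1, the core of the apoptosome, at log2 0.59, adjusted p = 0.0317. Of 22 genes of the DNA damage response 1 fell (Nbn, log2 -0.70, adjusted p = 0.0424) and 0 rose (median 0.15, unadjusted 4). The count of p53 targets that rose became 3 without NC replicate 1 and 2 without Sin3a KD replicate 1 or 3, and that of the BCL2 list became 5 without NC replicate 2. Plk2 did not pass without NC replicate 1 or Sin3a KD replicate 1 or 3 (adjusted p = 0.0528 to 0.0664). Aen did not pass without Sin3a KD replicate 1 or 3 (adjusted p = 0.0607 to 0.0669). Cdkn1a did not pass without NC replicate 1 or 2, Hdac1/2 cKD replicate 1, 2 or 3, or Sin3a KD replicate 1 or 3 (adjusted p = 0.0528 to 0.175). Apaf1 did not pass without NC replicate 1 or 3 or Sin3a KD replicate 1, 2 or 3 (adjusted p = 0.0599 to 0.12). Nbn did not pass without NC replicate 1 or 3, Hdac1/2 cKD replicate 1 or 3, or Sin3a KD replicate 1 or 3 (adjusted p = 0.0545 to 0.149). Lowered damage response genes numbered 2 without NC replicate 2.

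**Figure D4:**
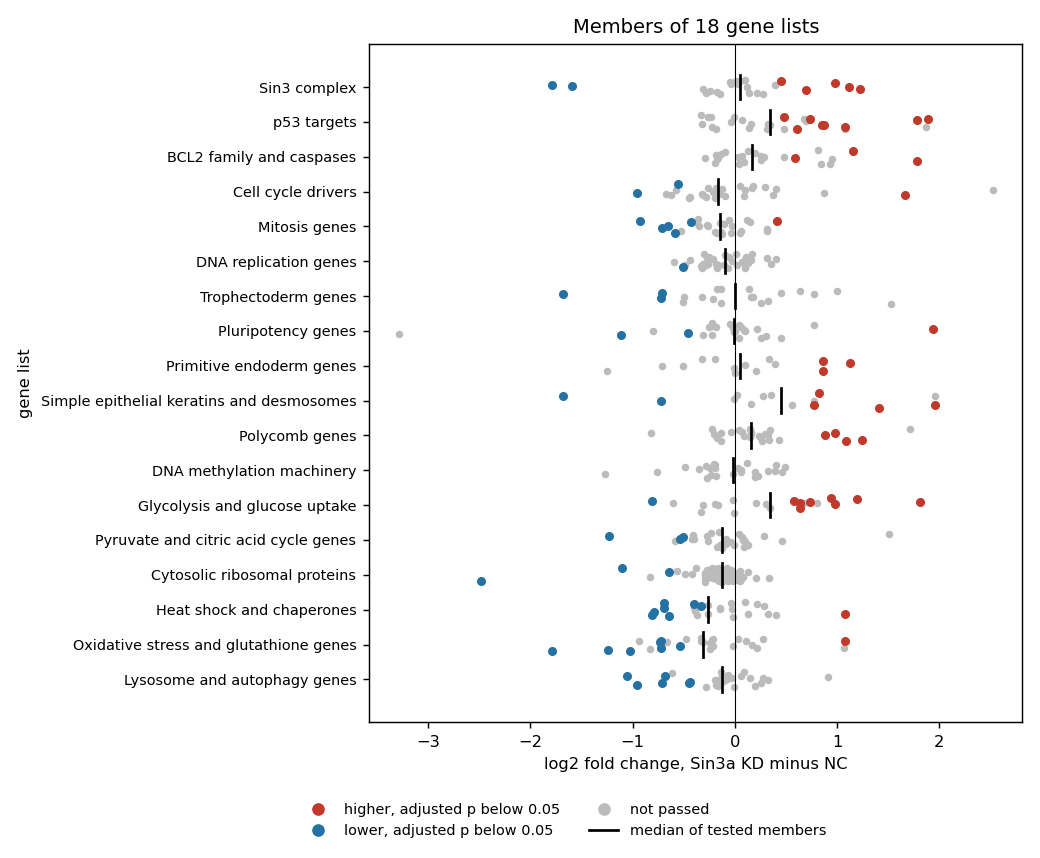
Log2 fold change of Sin3a KD minus NC for each tested member of 18 lists, with members that rose in red, members that fell in blue, members that did not pass in grey and a black bar at the list median. The p53 targets and glycolysis genes have 8 raised members each, while the heat shock and oxidative stress lists have 7 lowered members each.

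Of the genes of cell division, more fell than rose. Of 28 mitosis genes 5 fell (Cenpa, Aurka, Mad2l1, Bub1b and Ttk) and 1 rose (Incenp) (median -0.14, unadjusted 10). Cenpa, the histone H3 variant of centromeres, had counts of 2124, 1798 and 2119 in NC and 1042, 1275 and 887 in Sin3a KD (log2 -0.93, SE 0.14, adjusted p = 0.00319). Aurka, a kinase of the spindle poles, had counts of 5267, 4174 and 5239 in NC and 3159, 3382 and 3185 in Sin3a KD (log2 -0.59, adjusted p = 0.00621), and Mad2l1, of the spindle checkpoint, 1767, 1918 and 1895 in NC and 1156, 1277 and 1113 in Sin3a KD (log2 -0.66, adjusted p = 0.0046). All 3 Sin3a KD libraries lay below NC in each of these genes. Mad2l1 stood at 1103, 1143 and 1152 in Hdac1/2 cKD, and Aurka at 4678, 4479 and 4974 in Hdac1/2 cKD (direct comparison log2 -0.54, adjusted p = 0.00328). Of 28 cell cycle drivers 2 fell and 1 rose (median -0.17, unadjusted 13): Ccna2, cyclin A2, had counts of 5788, 4281 and 5112 in NC and 3321, 3607 and 3334 in Sin3a KD (log2 -0.55, adjusted p = 0.00947), Cdc25b a log2 change of -0.96, and Rb1, the retinoblastoma gene, 1.66 from low counts of 20.2, 15.8 and 25.6 in NC and 45.1, 54.8 and 115 in Sin3a KD. Of 37 replication genes 1 fell, the origin recognition gene Orc1 (log2 -0.51, adjusted p = 0.0349), and 0 rose (median -0.10, unadjusted 12). The 5 mitosis genes became 3 without NC replicate 1 or 3 or Sin3a KD replicate 1 or 3. Ttk did not pass without NC replicate 1 or 3 or Sin3a KD replicate 1 or 3 (adjusted p = 0.0557 to 0.0967). Cdc25b did not pass without NC replicate 1 or 3 or Sin3a KD replicate 2 (adjusted p = 0.0572 to 0.0791). Rb1 did not pass without NC replicate 1 or 2, Hdac1/2 cKD replicate 2, or Sin3a KD replicate 1, 2 or 3 (adjusted p = 0.0524 to 0.164). Orc1 did not pass without NC replicate 1, 2 or 3, Hdac1/2 cKD replicate 1, or Sin3a KD replicate 1, 2 or 3 (adjusted p = 0.0508 to 0.109). Raised mitosis genes numbered 0 without NC replicate 1 or 3, Hdac1/2 cKD replicate 1, 2 or 3, or Sin3a KD replicate 1 or 3. Raised cell cycle drivers numbered 2 without NC replicate 3. Raised replication genes numbered 1 without NC replicate 2.

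A minority of the lineage genes of the morula passed the test. Of 20 trophectoderm genes 3 fell and 0 rose (median 0.00, unadjusted 6). Krt8, an intermediate filament protein of simple epithelia, had counts of 1462, 1095 and 2098 in NC and 391, 566 and 459 in Sin3a KD (log2 -1.68, SE 0.21, adjusted p = 0.00222), and its partner Krt18 had counts of 658, 499 and 703 in NC and 406, 367 and 344 in Sin3a KD (log2 -0.72, adjusted p = 0.016). Lrp2 (megalin), an endocytic receptor, had counts of 3305, 3266 and 3701 in NC and 1906, 2349 and 2031 in Sin3a KD (log2 -0.71, SE 0.10, adjusted p = 0.00297) and was lower than in Hdac1/2 cKD too (4389, 4189 and 3999.6 in Hdac1/2 cKD, adjusted p = 4.73e-05). The same keratins also stand in the list of simple epithelial keratins and desmosome genes, where 4 of 14 members rose and these 2 fell (median 0.45, unadjusted 9). The raised members were the desmosomal plaque genes Pkp2 (399, 619 and 418 in NC and 838, 784 and 874 in Sin3a KD, log2 0.82, adjusted p = 0.0142), Evpl and Ppl and the cross-linker Plec. Among the members that passed, the 2 that fell were filament genes and the 4 that rose were not. Over all 14 tested members the log2 change was positive in 11 and negative in 3. The count of 4 became 2 without NC replicate 1 or 3 and 0 without Sin3a KD replicate 1 or 3. Krt18 did not pass without NC replicate 1 or 3 or Sin3a KD replicate 3 (adjusted p = 0.0521 to 0.0721). Pkp2 did not pass without NC replicate 1 or Sin3a KD replicate 1 or 3 (adjusted p = 0.055 to 0.0659). Evpl did not pass without Sin3a KD replicate 1 or 3 (adjusted p = 0.058 to 0.0871). Raised trophectoderm genes numbered 1 without NC replicate 1.

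Among 25 pluripotency genes 1 rose and 2 fell (median -0.01, unadjusted 8). Nanog, a homeobox factor of the inner cell mass, had counts of 1012, 1257 and 1738 in NC and 422, 875 and 587 in Sin3a KD (log2 -1.12, SE 0.25, adjusted p = 0.0194), with the 3 Sin3a KD libraries at under the lowest NC value and replicate 2 again the highest. Dppa2 had counts of 9289.5, 7574 and 7559 in NC and 6253, 6184 and 5312 in Sin3a KD (log2 -0.46, adjusted p = 0.0206). Otx2, a homeobox factor that marks the epiblast after implantation, had counts of 75.9, 193 and 75.8 in NC and 347, 455 and 402 in Sin3a KD (log2 1.93, SE 0.39, adjusted p = 0.0112). Of 18 morula markers 4 fell, all of them named above (Nanog, Dppa2, Krt8 and Krt18), and 0 rose (median -0.20, unadjusted 7). Of 14 primitive endoderm genes 3 rose, all of them basement membrane genes, and 0 fell (median 0.05, unadjusted 6). Col4a2, a type IV collagen chain, had counts of 1150.5, 1322 and 741 in NC and 2701, 2091 and 2096 in Sin3a KD (log2 1.13, SE 0.19, adjusted p = 0.00542), its neighbour Col4a1 1631, 1975 and 1230.5 in NC and 3035, 2891 and 2734 in Sin3a KD (log2 0.87, adjusted p = 0.0063) and the laminin chain gene Lamb1 688, 961 and 923 in NC and 1530.0, 1357 and 1765 in Sin3a KD (log2 0.86, adjusted p = 0.0063). The 2 collagen genes were also higher than in Hdac1/2 cKD (log2 1.45 and 0.81, adjusted p = 0.000291 and 0.00289). The 4 lowered morula markers became 2 without NC replicate 1 or 3 or Sin3a KD replicate 1 and 1 without Sin3a KD replicate 3. Nanog did not pass without NC replicate 3 or Sin3a KD replicate 1 or 3 (adjusted p = 0.0596 to 0.0776). Dppa2 did not pass without NC replicate 1 or Sin3a KD replicate 1 or 3 (adjusted p = 0.0554 to 0.0983). Otx2 did not pass without Sin3a KD replicate 3 (adjusted p = 0.0544). Lowered primitive endoderm genes numbered 2 without NC replicate 2 and 1 without Sin3a KD replicate 2.

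Of the 25 Hippo pathway genes, which link cell position to the choice between trophectoderm and inner cell mass, 3 fell and 2 rose (median -0.12, unadjusted 11). Wwc1 (KIBRA), an upstream activator of the kinase cascade, had counts of 488, 503 and 876 in NC and 181, 236 and 165 in Sin3a KD (log2 -1.64, SE 0.23, adjusted p = 0.00297) and stood at 730.2, 706 and 975 in Hdac1/2 cKD. Amot, which holds YAP out of the nucleus, had counts of 3126, 2987 and 2469 in NC and 1814, 2108 and 1536 in Sin3a KD (log2 -0.66, adjusted p = 0.0106), and Mob1b, a kinase cofactor, fell as well. Tead3, a partner of YAP on DNA, rose, with counts of 97.2, 76.6 and 33.6 in NC and 219, 162 and 256 in Sin3a KD (log2 1.71, adjusted p = 0.0155) and so did Vgll4, which competes with YAP, with counts of 861, 756 and 623 in NC and 1315, 983 and 1174 in Sin3a KD (log2 0.63, adjusted p = 0.023). Of 30 polarity, adhesion and junction genes 2 fell and 0 rose (median 0.04, unadjusted 11). Of these the water channel gene Aqp3 had counts of 3595, 2969 and 4164 in NC and 1955, 2576 and 2268 in Sin3a KD (log2 -0.65, SE 0.13, adjusted p = 0.0106). Of 27 actin and myosin genes 3 rose and 2 fell (median -0.05, unadjusted 13). The cytoplasmic actin gene Actb had counts of 19402, 15377 and 17804 in NC and 8985, 10917 and 10868 in Sin3a KD (log2 -0.77, SE 0.12, adjusted p = 0.0035) and Actg1 a log2 change of -0.53, while the bundling protein gene Fscn1 rose by 0.88. The 3 lowered Hippo genes became 1 without Sin3a KD replicate 3, and the 3 raised actin and myosin genes became 0 without Sin3a KD replicate 1 or 3. Amot did not pass without Sin3a KD replicate 3 (adjusted p = 0.057). Tead3 and Fscn1 did not pass without Sin3a KD replicate 1 or 3 (adjusted p = 0.0566 to 0.0774). Vgll4 and Actg1 did not pass without NC replicate 3 or Sin3a KD replicate 1 or 3 (adjusted p = 0.0596 to 0.113). Aqp3 did not pass without Sin3a KD replicate 1 (adjusted p = 0.058). Raised polarity and junction genes numbered 1 without NC replicate 2. Lowered polarity and junction genes numbered 4 without NC replicate 2.

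In the list of 36 FGF, BMP, Nodal and Wnt signalling genes 3 rose and 1 fell (median 0.13, unadjusted 8). Fgf3, the growth factor ligand gene that fell (above), was not on this list. Id3, a target gene of BMP signalling, had counts of 1899, 1169 and 1398 in NC and 698, 800.4 and 399 in Sin3a KD (log2 -1.26, SE 0.24, adjusted p = 0.00863) and stood at 578, 596 and 538 in Hdac1/2 cKD. Smad1, which carries the BMP signal, stood at 35.7, 70.9 and 45.1 in NC and 145, 119.7 and 133 in Sin3a KD (log2 1.43, adjusted p = 0.0152), Tcf7, a Wnt effector, at 102, 133 and 76.6 in NC and 241, 203 and 282 in Sin3a KD (log2 1.24, adjusted p = 0.0105), and Pcsk6, a convertase that cleaves Nodal, at 820.3, 928 and 833 in NC and 1304, 1055 and 1300.2 in Sin3a KD (log2 0.50, adjusted p = 0.0313). Of the immediate early genes, which respond quickly to growth signals, 2 of 18 rose and 1 fell (median 0.34, unadjusted 8): Ier2 had counts of 313, 445 and 419 in NC and 836, 783 and 707 in Sin3a KD (log2 0.99, SE 0.16, adjusted p = 0.00446), Junb a log2 change of 1.14, and the nuclear receptor gene Nr4a1 counts of 547, 474 and 500.3 in NC and 188, 245 and 174 in Sin3a KD (log2 -1.34, SE 0.20, adjusted p = 0.0035). The 3 raised signalling genes became 1 without NC replicate 1 or Sin3a KD replicate 1 and 0 without Sin3a KD replicate 3. Smad1 did not pass without NC replicate 1 or Sin3a KD replicate 1 or 3 (adjusted p = 0.0541 to 0.0724). Tcf7 did not pass without Sin3a KD replicate 3 (adjusted p = 0.0574). Pcsk6 did not pass without NC replicate 1 or 3, Hdac1/2 cKD replicate 2, or Sin3a KD replicate 1 or 3 (adjusted p = 0.0501 to 0.131). Junb did not pass without NC replicate 1 or 3, Hdac1/2 cKD replicate 1, 2 or 3, or Sin3a KD replicate 1 or 3 (adjusted p = 0.0504 to 0.163). Lowered immediate early genes numbered 2 without NC replicate 2.

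DNA methylation stands in the title of the study, and 0 of 25 tested genes of its machinery passed (median -0.02, unadjusted 5). The lowest adjusted p of the list belonged to Cbx1, a reader of methylated histone H3 lysine 9, with counts of 634, 485 and 656 in NC and 770.1, 783 and 867 in Sin3a KD (log2 0.46, SE 0.14, adjusted p = 0.0646). Of 21 imprinted genes, whose expression depends on the parent that a gene copy came from, 1 rose and 1 fell (median 0.37, unadjusted 7). Sfmbt2, on the paternally expressed side, had counts of 154, 254 and 189 in NC and 398, 519 and 782 in Sin3a KD (log2 1.48, SE 0.24, adjusted p = 0.00495), below its level in Hdac1/2 cKD (1390.2, 1077 and 1299 in Hdac1/2 cKD, direct comparison log2 -1.19, adjusted p = 0.0044). Impact had counts of 836, 722 and 752 in NC and 264, 477 and 374 in Sin3a KD (log2 -1.09, SE 0.19, adjusted p = 0.00542) and stood at 937, 855 and 826 in Hdac1/2 cKD (direct comparison log2 -1.27, adjusted p = 0.00056). Polycomb genes, which maintain repression through other histone marks, rose in 4 of 27 cases with 0 lowered (median 0.16, unadjusted 6). Kdm6b, which removes methyl groups from histone H3 lysine 27 and so acts against Polycomb, had counts of 2445, 3451 and 2187 in NC and 5772, 5048 and 6059 in Sin3a KD (log2 1.09, SE 0.15, adjusted p = 0.00297), and among the others were the subunits Pcgf2 and Cbx6, at log2 1.24 and 0.88. The 4 raised Polycomb genes became 2 without NC replicate 1 or Sin3a KD replicate 1 and 1 without NC replicate 3 or Sin3a KD replicate 3. Pcgf2 did not pass without NC replicate 1 or 3 or Sin3a KD replicate 1 or 3 (adjusted p = 0.075 to 0.126). Cbx6 did not pass without NC replicate 3 or Sin3a KD replicate 3 (adjusted p = 0.0609 to 0.102). Lowered methylation genes numbered 1 without NC replicate 2. Raised imprinted genes numbered 3 without NC replicate 2.

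The lists of stage-specific and tissue-specific transcripts had 0 to 2 members each that passed, and that of histones 4. Of 21 genes activated at the two-cell stage 1 fell, Tmem92 (1981, 1844 and 1721 in NC and 1196, 1348 and 1049.8 in Sin3a KD, log2 -0.63, adjusted p = 0.0077), and 0 rose (median -0.05, unadjusted 3). Of 22 maternal and oocyte transcripts 0 passed (median 0.33, unadjusted 2). Of 30 germline and meiosis genes Tdrd9 rose (log2 1.03, adjusted p = 0.0314) and Tex19.1 fell (2081, 1375 and 2043 in NC and 842, 947 and 936 in Sin3a KD, log2 -0.99, SE 0.15, adjusted p = 0.00344) (median 0.23, unadjusted 9). Of 16 tested neuronal genes held down by REST, a factor that works with SIN3A, 0 rose and 2 fell, Syp and L1cam, by -2.14 and -1.20 on the log2 scale (median -0.06, unadjusted 4). Among 15 interferon response genes Bst2 rose (log2 0.81, adjusted p = 0.0188) and Stat2, which carries the interferon signal, fell, with counts of 393, 282 and 334 in NC and 111, 165 and 127 in Sin3a KD (log2 -1.33, SE 0.21, adjusted p = 0.00397) (median -0.16, unadjusted 4). Of 15 core and variant histone genes 2 rose (H2afj and Hist3h2a) and 2 fell (Cenpa, above, and H3f3b, log2 -0.48, adjusted p = 0.0172) (median -0.12, unadjusted 7). Of the markers of cells outside the embryo, 0 of 7 cumulus and granulosa genes, 0 of 3 sperm genes and 0 of 7 oviduct, fibroblast and blood genes passed, with 2, 0 and 0 at an unadjusted limma p below 0.05 and medians of 0.59, 0.31 and 0.72. Tdrd9 did not pass without NC replicate 2 or 3 or Sin3a KD replicate 2 or 3 (adjusted p = 0.0548 to 0.145). L1cam did not pass without NC replicate 1, 2 or 3 or Sin3a KD replicate 1 or 2 (adjusted p = 0.0539 to 0.134). Bst2 did not pass without NC replicate 1 or Sin3a KD replicate 1 or 3 (adjusted p = 0.0576 to 0.0848). H2afj did not pass without Sin3a KD replicate 1 (adjusted p = 0.0642). Hist3h2a did not pass without NC replicate 1 or 3 or Sin3a KD replicate 1, 2 or 3 (adjusted p = 0.0626 to 0.119). H3f3b did not pass without NC replicate 1 or 3 or Sin3a KD replicate 1 or 3 (adjusted p = 0.0537 to 0.0819). Raised germline genes numbered 3 without NC replicate 2 and 2 without Hdac1/2 cKD replicate 3. Raised REST list members numbered 1 without NC replicate 2. Lowered REST list members numbered 0 without NC replicate 1 or 3 or Sin3a KD replicate 1 and 1 without Sin3a KD replicate 2. Lowered histone genes numbered 4 without NC replicate 2.

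The listed glucose uptake and glycolysis genes mostly moved upward where they passed. Of 21 tested genes 8 rose (Slc2a1, Slc2a3, Gpi1, Pfkl, Tpi1, Pgk1, Pkm and Ldha) and 1 fell (Pgam1) (median 0.34, unadjusted 11). Pklr, the pyruvate kinase gene that fell (above), was not on this list. Tpi1, triosephosphate isomerase, had counts of 187, 387 and 175 in NC and 833, 759 and 869 in Sin3a KD (log2 1.81, SE 0.27, adjusted p = 0.00355). Pfkl, a subunit of the enzyme that commits glucose to glycolysis, had counts of 265, 334 and 214 in NC and 650.0, 572 and 612 in Sin3a KD (log2 1.19, SE 0.18, adjusted p = 0.00347), and Slc2a3, which encodes a glucose transporter, 3300.0, 5499 and 3474 in NC and 7358, 8151 and 8071 in Sin3a KD (log2 0.98, adjusted p = 0.00953). In each of these 3 genes all Sin3a KD libraries lay above NC. Tpi1 stood at 494, 752 and 786 in Hdac1/2 cKD, and the direct comparison did not pass for it (adjusted p = 0.508). Pgam1, phosphoglycerate mutase, had counts of 5122, 4101 and 5363 in NC and 2547, 3454 and 2386 in Sin3a KD (log2 -0.81, adjusted p = 0.00542), and a copy identical over the aligned bases, Pgam1-ps2, can share its reads. The 8 raised genes became 5 without NC replicate 1 or Sin3a KD replicate 1 and 3 without Sin3a KD replicate 3. Lowered glycolysis genes numbered 2 without NC replicate 2.

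The lists of the citric acid cycle, fatty acid oxidation and lipid synthesis had 3 or 4 members each that passed (10.3% to 14.8%, against 7.96% of all tested genes). In the top class of all tested genes by count, 9.15% fell and 5.28% rose, and these lists were not matched by level. Of 29 genes of pyruvate use and the citric acid cycle 3 fell and 0 rose (median -0.12, unadjusted 7). Suclg2, a subunit of succinyl-CoA ligase, had counts of 1195, 939 and 1336 in NC and 371, 617 and 505 in Sin3a KD (log2 -1.23, SE 0.18, adjusted p = 0.00297), and Ogdh and Idh1 had log2 changes of -0.51 and -0.54. The 43 tested nuclear genes of oxidative phosphorylation had a median of -0.02, and 5 of them had an unadjusted limma p below 0.05. Of 13 genes of the mitochondrial genome only mt-Co3 passed, downward (log2 -0.32, adjusted p = 0.0313) (median -0.17, unadjusted 5). Fatty acid oxidation had 2 raised members (Slc25a20 and Hadhb, log2 0.44 and 0.49) and 2 lowered ones (Acsl4 and Acadl, -1.10 and -0.63) of 27 (median 0.11, unadjusted 8). Cholesterol and fatty acid synthesis had 3 lowered members of 27 and 1 raised (median -0.12, unadjusted 8). Scd1, a desaturase, had counts of 1572, 1121 and 1489 in NC and 686, 860.3 and 741 in Sin3a KD (log2 -0.86, adjusted p = 0.00542), the others being Elovl6 (-0.52) and Msmo1 (-0.47). The 3 citric acid cycle genes became 1 without NC replicate 1 or 3, Hdac1/2 cKD replicate 1, 2 or 3, or Sin3a KD replicate 1, and the 3 lipid synthesis genes became 1 without NC replicate 1 or Sin3a KD replicate 1 or 3 and 5 without NC replicate 2. Ogdh did not pass without NC replicate 1 or 3, Hdac1/2 cKD replicate 1, 2 or 3, or Sin3a KD replicate 1 or 3 (adjusted p = 0.0547 to 0.168). Idh1 did not pass without NC replicate 1, 2 or 3, Hdac1/2 cKD replicate 1, 2 or 3, or Sin3a KD replicate 1 or 3 (adjusted p = 0.058 to 0.2). mt-Co3 did not pass without NC replicate 1 or 3, Hdac1/2 cKD replicate 2, or Sin3a KD replicate 1 or 3 (adjusted p = 0.0554 to 0.129). Slc25a20 did not pass without NC replicate 1 or 3 or Sin3a KD replicate 1, 2 or 3 (adjusted p = 0.0537 to 0.107). Hadhb and Elovl6 did not pass without NC replicate 1 or Sin3a KD replicate 1 or 3 (adjusted p = 0.0639 to 0.0918). Acadl did not pass without NC replicate 1 or 3 or Sin3a KD replicate 1 or 3 (adjusted p = 0.054 to 0.0857). Msmo1 did not pass without NC replicate 1 or 3, Hdac1/2 cKD replicate 1, or Sin3a KD replicate 1, 2 or 3 (adjusted p = 0.0557 to 0.137). Lowered mitochondrial genome genes numbered 4 without Sin3a KD replicate 2. Raised lipid synthesis genes numbered 0 without NC replicate 1 or 3 or Sin3a KD replicate 1 or 3.

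Chaperone genes fell more often than they rose. Of 25 heat shock and chaperone genes 7 fell (Hspa4, Hspa8, Hsp90aa1, Hsp90ab1, Dnaja1, Dnajb6 and Pdia4) and 1 rose (Hspa1a) (median -0.26, unadjusted 14). Dnajb6, which hands clients to HSP70, had counts of 20364, 17071 and 18902 in NC and 10414, 11906 and 9767 in Sin3a KD (log2 -0.81, SE 0.10, adjusted p = 0.00174), and Hspa4, an exchange factor of HSP70, 6258, 4554 and 5360.1 in NC and 2898, 3724 and 2719 in Sin3a KD (log2 -0.79, adjusted p = 0.00542). Hspa8, the constitutive HSP70, had counts of 98987, 84199 and 97748 in NC and 53147, 66922 and 53718 in Sin3a KD (log2 -0.70, adjusted p = 0.00297), and the near-identical model Gm15459 can share its reads. Hspa1a, the heat-inducible HSP70, moved the other way (178, 284 and 154 in NC and 440.3, 415 and 403 in Sin3a KD, log2 1.08, adjusted p = 0.0133). The count of 7 became 4 without NC replicate 1 or 3 and 3 without Sin3a KD replicate 1 or 3. Hspa1a did not pass without Sin3a KD replicate 1 or 3 (adjusted p = 0.0523 to 0.0609). After quantile normalisation Hsp90ab1 had a log2 difference of 0, which that method gives any gene that keeps its rank across libraries. For such a gene that fit cannot show a change in level.

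Of 27 genes against oxidative stress 7 fell (Gpx1, Gsr, Prdx1, Prdx3, Txn2, Txnrd1 and Srxn1) and 1 rose, Nfe2l2, which encodes the NRF2 factor that drives many genes of this list. The median of the list was -0.31, and 15 of its members had an unadjusted limma p below 0.05. Txnrd3, a paralogue of Txnrd1 that rose (above), was not on this list. Srxn1, which restores oxidised peroxiredoxins, had counts of 145, 165 and 205 in NC and 32.9, 56.4 and 61.5 in Sin3a KD (log2 -1.78, SE 0.30, adjusted p = 0.00495). Txn2, mitochondrial thioredoxin, had counts of 849, 499 and 963 in NC and 232, 395 and 332 in Sin3a KD (log2 -1.24, adjusted p = 0.00907), and Gsr, which regenerates glutathione, 2133, 1737 and 1788 in NC and 967, 1382 and 1103 in Sin3a KD (log2 -0.72, adjusted p = 0.00908). The 3 genes were lower in every Sin3a KD library than in NC and also lower than in Hdac1/2 cKD (direct comparison, log2 -1.40, -1.45 and -0.68, adjusted p = 0.00541, 0.00124 and 0.00479). Of 29 lysosome and autophagy genes 6 fell (Ctsb, Ctsh, Ctsl, Hexa, Psap and Sqstm1) and 0 rose (median -0.13, unadjusted 11). Galc, a lysosomal gene that fell (above), was not on this list. Hexa, a hexosaminidase subunit, had counts of 1139.6, 1099.7 and 1282 in NC and 523, 739 and 571 in Sin3a KD (log2 -0.95, SE 0.16, adjusted p = 0.00495), and the protease gene Ctsb 2298, 1646 and 1971 in NC and 1292, 1261 and 1047 in Sin3a KD (log2 -0.71, adjusted p = 0.00865). The 7 oxidative stress genes became 4 without NC replicate 1 or 3 or Sin3a KD replicate 3 and 11 without NC replicate 2, and the 6 lysosome genes became 3 without NC replicate 1 or Sin3a KD replicate 1 or 3. Raised lysosome genes numbered 1 without NC replicate 2. Raised oxidative stress genes numbered 2 without NC replicate 2 and 0 without Sin3a KD replicate 3. Ctsh did not pass without NC replicate 1 or Sin3a KD replicate 1 or 3 (adjusted p = 0.052 to 0.0777). Psap did not pass without Sin3a KD replicate 3 (adjusted p = 0.0576).

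Most growth genes under MYC and most ribosomal protein genes did not pass. Of 35 genes of the Myc network and ribosome biogenesis 5 fell and 1 rose (Mxd4) (median -0.12, unadjusted 11). Besides Mnt these were Rrn3, an initiation factor of RNA polymerase I, with counts of 4069, 3128 and 3795 in NC and 1835, 2359 and 1956 in Sin3a KD (log2 -0.84, SE 0.12, adjusted p = 0.00297), the nucleolar genes Gnl3 (3338, 2785 and 3237 in NC and 1753, 2245 and 1831 in Sin3a KD, log2 -0.69, adjusted p = 0.00542) and Npm1 (log2 -0.52), and Taf1d. Of 75 cytosolic ribosomal protein genes 3 fell (Rpl7, Rpl3 and Rpl10a) and 0 rose (median -0.12, unadjusted 16), and the count of 3 became 9 without NC replicate 2. Rpl3 had counts of 11393, 7245 and 10760.3 in NC and 3651, 5281 and 4686 in Sin3a KD (log2 -1.10, SE 0.18, adjusted p = 0.00542). Rpl3 and Rpl10a have near-identical processed copies at substantial counts (for Rpl3-ps1, 5781, 4586 and 6960 in NC libraries, then 2707, 3109 and 1979.7 in Sin3a KD libraries), so their reads could have been split, whereas the only copy of Rpl7 in the table reached at most 14.1 in these libraries. Of 32 splicing factors Snrpd2 rose (log2 0.41, adjusted p = 0.0383) and Tra2b fell (log2 -0.44, adjusted p = 0.0289) (median -0.02, unadjusted 10). Snrpd3, the splicing snRNP gene that fell (above), was not on this list. The 5 Myc network genes became 3 without Sin3a KD replicate 1 or 3. Npm1 did not pass without Sin3a KD replicate 1 or 3 (adjusted p = 0.0526 to 0.0554). Snrpd2 did not pass without NC replicate 1 or 2, Hdac1/2 cKD replicate 1 or 2, or Sin3a KD replicate 1 or 3 (adjusted p = 0.0522 to 0.151). Tra2b did not pass without NC replicate 1 or 3 or Sin3a KD replicate 1 or 3 (adjusted p = 0.0586 to 0.125). Raised splicing factors numbered 2 without Sin3a KD replicate 2. Lowered splicing factors numbered 4 without NC replicate 2 and 3 without Sin3a KD replicate 2.

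The direct comparison with Hdac1/2 cKD takes the difference without the NC libraries, which enter it only through the shared estimate of the spread. It asked where lowering the scaffold and lowering the deacetylases gave different levels. In it 1171 genes (8.78%) were higher in Sin3a KD and 1133 (8.49%) lower. Of the 1062 genes that passed against NC, 502 (47.3%) also passed here, against 17.3% of all tested genes. Among them 182 had risen against NC and were higher than in Hdac1/2 cKD too, and 284 had fallen and were lower too, while 23 had risen but were lower than in Hdac1/2 cKD and 13 had fallen but were higher. Both comparisons use the same Sin3a KD libraries. A shared direction, here and for the genes above, therefore follows in part from the choice of genes and is no separate support. The counts of the direct comparison were 684 and 742 without Sin3a KD replicate 1, 763 and 735 without Hdac1/2 cKD replicate 1, and 552 and 450 with lane as a factor.

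A set of named genes passed against NC in opposite directions in the 2 knockdowns, with the direct comparison passed as well. For such genes the direct difference holds both effects, so its passing largely follows from the choice of genes. Most of those below were also named for a low adjusted p in the direct comparison, which is therefore no separate support. The log2 values in brackets here, written as direct log2, are Sin3a KD minus Hdac1/2 cKD. In Hdac1/2 cKD against NC, 7.81% of all tested genes were higher and 7.80% lower. Dlc1, a GTPase-activating protein, had counts of 845, 1189 and 818 in NC and 1884, 1482 and 1763 in Sin3a KD but 346, 361 and 399 in Hdac1/2 cKD (direct log2 2.20, SE 0.16, adjusted p = 3.52e-06). Cers6, a ceramide synthase, had counts of 1249.6, 1366 and 938 in NC and 1996, 2120.0 and 2202 in Sin3a KD but 612, 785 and 609 in Hdac1/2 cKD (direct log2 1.66, SE 0.15, adjusted p = 1.72e-05). Bbx, an HMG-box gene, had counts of 1283, 1615 and 1277 in NC and 2327, 2199 and 2622 in Sin3a KD but 871, 741 and 936 in Hdac1/2 cKD (direct log2 1.49, SE 0.13, adjusted p = 1.46e-05). In these genes the order of the groups was the same, with Sin3a KD above NC and NC above Hdac1/2 cKD, and no library out of place. In the reverse order, Gnpda1, which breaks down glucosamine phosphate, had counts of 721, 537 and 570.1 in NC and 262, 317 and 199.8 in Sin3a KD but 1359, 1240.2 and 1313 in Hdac1/2 cKD (direct log2 -2.35, SE 0.18, adjusted p = 4.53e-06). Zc3hav1, an antiviral zinc finger protein, had counts of 471, 368 and 534 in NC and 235, 289 and 203 in Sin3a KD but 1067, 1175 and 1163 in Hdac1/2 cKD (direct log2 -2.24, SE 0.18, adjusted p = 5.69e-06). Alpl, an alkaline phosphatase, had counts of 724, 751 and 643 in NC and 236, 306 and 239 in Sin3a KD but 1145, 1052 and 899 in Hdac1/2 cKD (direct log2 -1.99, SE 0.16, adjusted p = 5.64e-06). Prdx1, a peroxiredoxin of the oxidative stress list, had counts of 1261, 1304 and 1838 in NC and 633, 943 and 597 in Sin3a KD but 3159, 2979 and 2759 in Hdac1/2 cKD (direct log2 -2.06, adjusted p = 1.46e-05). The comparisons against NC share the NC libraries, whose levels do not enter the direct difference. Rap2b, a small GTPase, is not of this set, because Hdac1/2 cKD against NC did not pass for it. It rose, with counts of 301, 347 and 340.4 in NC and 772, 673 and 851 in Sin3a KD and stood at 284, 229 and 214 in Hdac1/2 cKD (direct log2 1.66, adjusted p = 4.67e-05).

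**Figure D5:**
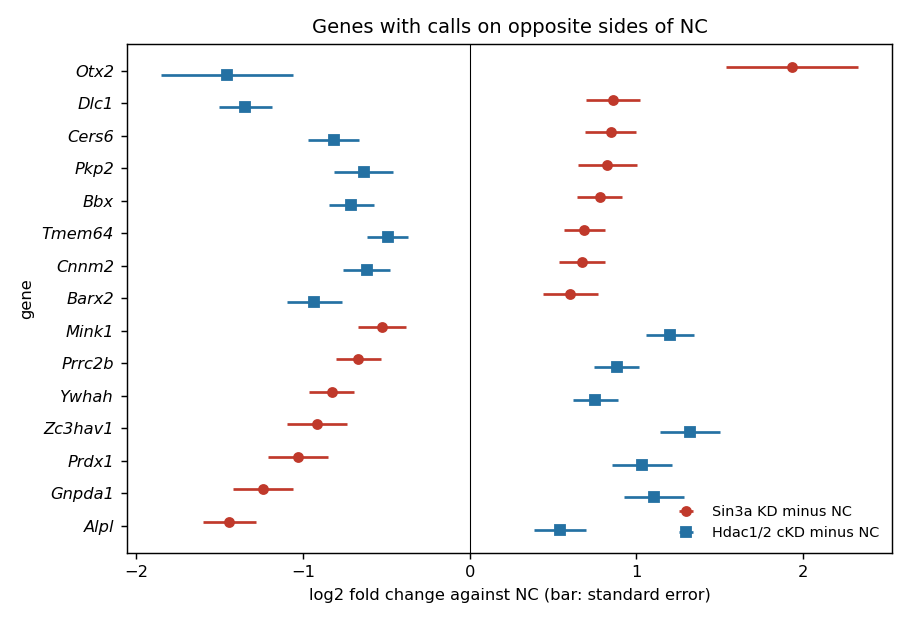
Log2 fold changes against NC with standard errors for 15 named genes that passed in opposite directions, with Sin3a KD and Hdac1/2 cKD as separate points. Genes such as Dlc1, Cers6 and Bbx lie above 0 in Sin3a KD and below 0 in Hdac1/2 cKD, and Gnpda1, Zc3hav1 and Alpl the other way round. Both sets of points share the 3 NC libraries.

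Other genes moved the same way in both knockdowns, where the shared NC libraries enter both values. Plxna1, a semaphorin receptor, had counts of 984, 1099 and 1052 in NC and 2306, 1887 and 2540.5 in Sin3a KD and 2079.7, 2329 and 2518 in Hdac1/2 cKD (log2 1.09, SE 0.13, adjusted p = 0.000879 for Sin3a KD). Zcchc14, a zinc finger gene, had counts of 214, 209 and 148 in NC and 633, 568 and 589 in Sin3a KD and 562, 464 and 424 in Hdac1/2 cKD (log2 1.66, SE 0.19, adjusted p = 0.000879). Ly6e, a surface protein, had counts of 65.2, 114 and 88.7 in NC and 271, 283 and 368 in Sin3a KD and 658, 561 and 824 in Hdac1/2 cKD (log2 1.79, adjusted p = 0.00222), so its rise was smaller in Sin3a KD (log2 -1.14, adjusted p = 0.00526 for the direct comparison). Gm14698 was listed at 0 in all 3 NC libraries and at 55.8, 48.3 and 44.6 in Sin3a KD. Slc35f2, a transporter, had counts of 1954, 1510.4 and 1782 in NC and 658, 777 and 595 in Sin3a KD and 984, 913 and 943 in Hdac1/2 cKD (log2 -1.37, SE 0.14, adjusted p = 0.000802). Lclat1, which remodels cardiolipin, had counts of 3597, 3214 and 3163 in NC and 1873, 2027 and 1606 in Sin3a KD and 2222, 1974 and 2335 in Hdac1/2 cKD (log2 -0.86, adjusted p = 0.00222), and Pafah1b1 (LIS1), a dynein regulator, 3448, 3917 and 4009 in NC and 2034, 2333 and 1761 in Sin3a KD and 2899, 2950.5 and 2676 in Hdac1/2 cKD (log2 -0.90, adjusted p = 0.00197). In Plxna1, Zcchc14 and Lclat1 the direct comparison did not pass (adjusted p = 0.847, 0.289 and 0.16), which does not show that the 2 knockdowns gave the same level.

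The genes that passed lay on all autosomes. Between autosomes the share that rose ranged from 1.66% of 302 tested genes on chromosome 18 to 5.10% of 431 on chromosome 12, and the share that fell from 2.37% of 379 on chromosome 16 to 6.16% of 1087 on chromosome 11. On the X chromosome 17 of 454 genes rose and 17 fell, 3.74% each. Of the genes matched to 1 gene of the annotation, 99.6% of the raised and 98.4% of the lowered were protein-coding, against 96.5% of all tested genes. The longest annotated transcript had a median length of 3719 bases for the raised, 3195 for the lowered and 3309.5 for all tested genes. These shares and medians are descriptions without a test.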

How the data were processed

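Polyadenylated RNA from 9 pools of mouse embryos was sequenced. Per the submitters' processing notes, Salmon and DESeq2 were used on build GRCm38, with versions and annotation not given in the sources used here. As deposited by the authors, the signal values are gene counts divided by normalisation factors, called normalised counts here, and 54.7% to 73.4% of a library's low values were within 0.05 of a whole multiple of 1 common step. Whole reads were therefore not recovered, no count test was run, and precision rests on the spread between libraries. Genes reaching 10 in at least 3 libraries were fitted as log2(value + 1), which understates changes of low genes, in limma 3.58.1 (R 4.3.3) with 1 mean per group over all 9 libraries, 6 residual degrees of freedom, and trend and robust variances. The line without a gene name held at most 0.00896% of a library's total and was not used. Simulated data were used to test the fit. The comparison and its 46 lists (1231 entries) were chosen with earlier results of these data known, so no set test was made. Genes were named by rule: the targets, the 10 highest and 10 lowest fold changes among called genes without overlap between groups and averaging 50 or more, up to 4 called members of each list at any level, and the genes with the lowest adjusted p among those passing in the direct comparison or in both knockdowns. Further called list members were named after their values were seen. Some genes that this rule names are not reported here. Near-identical copies were found with blastn 2.17.0 in GENCODE vM21 transcripts. Alternatives covered pseudocount, filter, scaling, moderation, weights, lane, replicate number and leaving out each library.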

Additional observations from a re-analysis of the deposited data

Results flagged for a closer look

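The genes given here are named genes that passed against NC in opposite directions in the 2 knockdowns and whose direct comparison also passed in limma. Opposite directions against NC make a large direct difference likely, so the direct adjusted p-values are no separate support. All values are log2 differences of Sin3a KD minus Hdac1/2 cKD. Genes that had risen in Sin3a KD and fallen in Hdac1/2 cKD were Otx2 at 3.39, Dlc1 at 2.20, Cers6 at 1.66, Barx2 at 1.54, Bbx at 1.49, Pkp2 at 1.46, Cnnm2 at 1.29 and Tmem64 at 1.18. Their adjusted p-values in the direct comparison were at most 0.000151. Genes that had fallen in Sin3a KD and risen in Hdac1/2 cKD were Gnpda1 at -2.35, Zc3hav1 at -2.24, Prdx1 at -2.06, Alpl at -1.99, Mink1 at -1.73, Ywhah at -1.58 and Prrc2b at -1.55, with adjusted p-values of at most 1.46e-05. Against NC, Barx2 and Mink1 were near the threshold in Sin3a KD (adjusted p = 0.0404 and 0.0409), and each did not pass there in 7 of the 9 fits that left out 1 library. Otx2 did not pass without Sin3a KD replicate 3 (adjusted p = 0.0544). Pkp2 did not pass without NC replicate 1 or Sin3a KD replicate 1 or 3 (adjusted p = 0.055 to 0.0659). Cnnm2 and Prrc2b did not pass without Sin3a KD replicate 1 (adjusted p = 0.0606 to 0.0675).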

How the results depend on the processing

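The counts for Sin3a KD against NC, 480 higher and 582 lower, moved by over 1.5 times with the libraries scaled to equal totals (741 higher), with only the libraries of the 2 groups (277 and 334), with moderation without trend and robust variances (17 and 19), with lane as a factor (61 and 33) and with both lone-lane libraries (NC and Sin3a KD replicate 1) left out (26 and 25). Leaving out 1 library gave 121 to 742 higher and 211 to 796 lower. For Sin3a KD against Hdac1/2 cKD, 1171 higher and 1133 lower, they were 775 higher without trend and robust variances, 1773 and 1768 with array weights (NC replicate 3 had the lowest weight, 0.42), 552 and 450 with lane as a factor and 662 and 722 with both lone-lane libraries left out. Leaving out 1 library gave 684 to 1379 higher and 712 to 1369 lower. Hdac1 kept its direction without trend and robust variances (log2 -1.59) but had an adjusted p of 0.0523. The fits with fewer libraries had fewer residual degrees of freedom, and otherwise the cause was not tested. The lone-lane libraries add nothing to a fit with lane as a factor. Replicate numbers did not pair the samples (correlations of same-numbered deviations 0.06, -0.02 and 0.00), and with the replicate block 476 genes were higher and 570 lower. Of 94 named genes that passed in both comparisons, 50 kept the direct call in every setting and 0 changed sign. Of 22 named genes that did not pass and are given at most in a count or range, 10 changed sign in at least 1 setting and 2 passed in at least 1.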
